A study of Mus musculus with 18 samples.

Results

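The miRNAs of the imprinted Dlk1-Dio3 locus were followed in the liver of control and hypothyroid mouse pups. They were taken as the mouse detectors on the TaqMan low density arrays (TLDA) whose miRNA number belongs to the locus, in any arm or letter, with star strands left out. This gave 47 of the 584 miRNA assays on the cards. Of these, 42 assays were read in at least 3 of 8 animals and were tested, 3 (miR-300, miR-370 and miR-377) were read in 1 or 2 animals, and 2 (miR-679 and miR-758) were read in none. Among the tested members, 29 were read in all 8 animals. For miR-299, miR-341, miR-412 and miR-541 of the locus there was no mouse detector outside the star strands.

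The animals were male C57BL/6 pups killed on post natal day (PND) 15, with a single male taken from each litter, so that each animal stands for its own litter. Pups of the hypothyroid group had dams that drank methimazole (MMI, 0.05%) and perchlorate (1%) in sugar water from PND 12 onward, and dams of the controls drank sugar water alone. MMI blocks the synthesis of thyroid hormone and perchlorate blocks the uptake of iodide. The water was given to dams with their litters. The methods state that control and hypothyroid pups were both injected with PBS before sacrifice. The TLDA measured 4 control and 4 hypothyroid livers, in which animals 1 and 2 of each group belonged to study 1 and animals 3 and 4 to study 2, and mRNA was measured on 2-colour arrays in 5 control and 5 hypothyroid livers.

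At this locus the protein-coding genes Dlk1, Rtl1 and Dio3 are expressed from the paternal chromosome, and the long non-coding RNAs Meg3, Rian and Mirg from the maternal one. The maternal transcripts carry one of the largest clusters of miRNAs known in mammals, a part of which lies antisense to Rtl1 and directs the cleavage of its mRNA. The cluster is best known from embryo, placenta, brain and muscle, and its expression in liver falls after birth. Dio3 encodes the type 3 deiodinase, which inactivates thyroid hormone, so the locus also holds an enzyme of the hormone that was withdrawn here.

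The mature sequences of the miRNAs on which the results turn are shown so that each can be told from its neighbours in the cluster. They are from the RefSeq table of GRCm38.p6, in which 46 of the 47 members had at least 1 mature sequence. Capitals mark the seed, bases 2 to 8 from the 5′ end, which pairs with target mRNAs. For 30 members the assay name does not give the arm, and where such a member is shown, both its RefSeq arms are given. The first pair is the member with the lowest delta Ct, followed by the members whose groups did not overlap or whose unadjusted p was below 0.05, and by miR-673-3p, which differed between the studies.
miR-127-5p: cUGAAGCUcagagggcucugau
miR-127-3p: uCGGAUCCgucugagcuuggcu
miR-666-5p: aGCGGGCAcagcugugagagcc
miR-381-5p: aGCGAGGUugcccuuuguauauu
miR-381-3p: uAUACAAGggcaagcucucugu
miR-410-5p: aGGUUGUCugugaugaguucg
miR-410-3p: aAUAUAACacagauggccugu
miR-540-3p: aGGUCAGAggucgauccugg
miR-376b-5p: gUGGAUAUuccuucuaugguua
miR-376b-3p: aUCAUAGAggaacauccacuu
miR-409-3p: gAAUGUUGcucggugaaccccu
miR-673-3p: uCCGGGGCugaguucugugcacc

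These sequences lie on the plus strand of chromosome 12. MiR-673-3p is at chr12:109572044-109572066 and miR-540-3p at chr12:109586122-109586141, and both are inside the gene model of Rtl1, as is miR-127-3p at chr12:109592888-109592909. MiR-666-5p at chr12:109717103-109717124, miR-376b-3p at chr12:109723508-109723528 and miR-381-3p at chr12:109726870-109726891 lie between Rian and Mirg. MiR-409-3p at chr12:109743204-109743225 and miR-410-3p at chr12:109743764-109743784 lie inside Mirg. Across the 72 mature sequences matched to members there were 69 distinct seeds, so the matched sequences seldom shared a seed. They include arms that the assays may not measure. For miR-376c, miR-487b and miR-539 only the 5p arm was matched, and for miR-485 only the 3p arm. The 3 seeds held by 2 members each were those of miR-379-3p with miR-411-3p, of miR-410-5p with miR-494-5p, and of miR-376b-5p with miR-376c-5p.

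In TLDA the threshold cycle (Ct) of each well was set against the mean of the 4 U6 wells of the same card. The difference, delta Ct, is in cycles and thus on a log2 scale, and a lower delta Ct means more miRNA. A log2 change is given as hypothyroid minus control on minus delta Ct, so a positive value means more miRNA in hypothyroid liver. Wells with no Ct were put at 40 cycles, which is a bound on the level and not a reading. U6 was read between 18.3 and 19.6 cycles on card A and between 16.8 and 17.9 on card B. Between 328 and 393 of the miRNA assays were read per animal, the most in hypothyroid 1 and the fewest in hypothyroid 4. Of the locus members, 39, 37, 39 and 40 were read in the controls and 43, 42, 36 and 32 in the hypothyroid animals, with the lowest number in hypothyroid 4. The hepatocyte miRNAs miR-122, miR-192 and miR-194 were read in every animal, at a mean delta Ct of 2.33 to 2.98 in controls and 2.39 to 3.03 in hypothyroid animals.

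The members were of moderate to low abundance in these livers. Over the 29 members read in all 8 animals, the mean delta Ct ran from 6.39 to 14.9 with a median of 9.61. The 10 members with the lowest delta Ct were miR-127, miR-379, miR-431, miR-411, miR-136, miR-376c, miR-434-3p, miR-382, miR-409-3p and miR-539, and they took places 51 to 96 among the 584 assays. The order of different assays also depends on how well each one amplifies. In the controls miR-127 was at 6.80 ± 0.26 (SD, n = 4) and miR-379 at 6.65 ± 0.0979 (SD, n = 4), and miR-431 at 7.002 ± 0.341 and miR-411 at 7.06 ± 0.156 differed by less than either SD. Other neighbours lay further apart, such as miR-382 at 8.12 ± 0.368 and miR-409-3p at 9.21 ± 0.296.

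MiR-127 lies antisense to Rtl1 and is the member most often used to follow the cluster. Its delta Ct was 7.16, 6.77, 6.74 and 6.53 in controls 1 to 4 and 4.61, 6.28, 6.23 and 6.83 in hypothyroid animals 1 to 4. Hypothyroid 1 was far above every other animal in level, hypothyroid 2 and 3 were just above the controls, and hypothyroid 4 lay among them. The log2 change was 0.82 (standard error in limma 0.50, adjusted p = 0.618), or 1.76-fold, and did not pass the threshold. It was 0.36 without hypothyroid 1, 0.48 with the mean of well-read miRNAs as reference and 0.20 with run day as a block.

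Hypothyroid 1 also stood apart in the other members of high level. MiR-431, also antisense to Rtl1, had a delta Ct of 6.94, 7.22, 6.55 and 7.3 in controls and of 4.87, 6.38, 6.75 and 7.11 in hypothyroid animals. MiR-379, the first miRNA of the cluster between Rian and Mirg, was at 6.59, 6.58, 6.64 and 6.79 in controls and at 5.61, 6.51, 6.38 and 6.96 in hypothyroid animals. In both, the hypothyroid animals other than number 1 lay within or close to the control range. MiR-539 stood further off in study 1, at 8.79, 9.14, 8.69 and 8.25 in controls against 6.32, 7.50, 8.14 and 8.95 in hypothyroid animals. Of the 10 members of highest level, 9 had a higher mean in hypothyroid liver and 9 had their highest level in hypothyroid 1. The exception to the first was miR-382, with a log2 change of -0.05. The exception to the second was miR-409-3p. Without hypothyroid 1 the log2 change went from 0.72 to 0.26 for miR-431, from 0.29 to 0.035 for miR-379 and from 0.99 to 0.52 for miR-539.

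**Figure D1:**
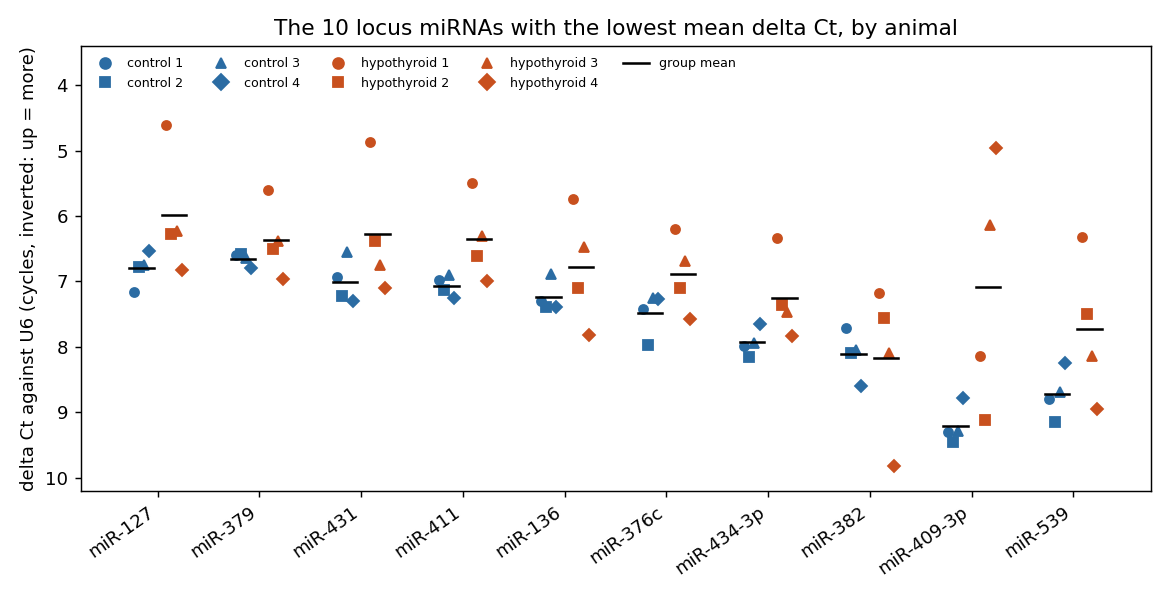
Delta Ct against U6 (cycles, axis inverted so that up means more miRNA) of the 10 locus miRNAs with the lowest mean delta Ct, with 1 point per animal and a bar at each group mean. Hypothyroid 1 has the highest level in 9 of the 10, and hypothyroid 4 is the lowest hypothyroid animal in 9 of them.

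No member passed the threshold of an adjusted p below 0.1 (limma over 396 assays), and neither did any other assay on the cards (0%). The adjusted p of the tested members ran from 0.144 to 0.986. At an unadjusted p below 0.05 there were 5 members, miR-666-5p, miR-381, miR-376b, miR-540-3p and miR-409-3p, each with the higher level in hypothyroid liver, where 4.29% of the 396 assays were higher and 1.01% were lower at that p. The F-test of the methods gave 0 members after adjustment and 2 at an unadjusted p below 0.05. Its share over all assays is not given here, so the 2 cannot be set against it. Its p comes from resampling the few residuals of each group, which limits how small it can be, so little can be read from the 0. In 3 members, miR-666-5p, miR-381 and miR-410, every hypothyroid animal lay above every control (1.77% of the assays did so). In 0 every hypothyroid animal lay below (1.52%). Of the 3, only miR-410 was read in every animal. MiR-666-5p was read in no control, so its lack of overlap follows from the bound put in for undetermined wells. MiR-381 was read in 2 controls, and these also lay below every hypothyroid animal in level. Undetermined control wells also enter the p of miR-666-5p, miR-381 and miR-540-3p above.

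MiR-666-5p was read in no control and in every hypothyroid animal. Its Ct was undetermined in controls 1 to 4, and was 33.5, 33.5, 36.5 and 36.6 in hypothyroid animals 1 to 4. With the controls at 40 cycles the delta Ct was 20.9 ± 0.36 (SD, n = 4) in controls and 16.2 ± 1.59 (SD, n = 4) in hypothyroid animals. The resulting log2 change of 4.71 (standard error in limma 0.76, adjusted p = 0.144) rests on the 40 cycles put in for the controls, and no fold is given for that reason. With 35 cycles as the highest value the change was 0.50, since hypothyroid 3 and 4 were then also at the limit. The assay was tested only because it was read in the hypothyroid animals. Its adjusted p was 0.0958 with the mean of well-read miRNAs as reference, 0.0851 without hypothyroid 4 and 0.0969 without hypothyroid 3, the only settings with both studies in which it passed, and it ran from 0.0712 to 0.677 over the settings tried.

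MiR-381 was undetermined in controls 1 and 3, had a Ct of 34.2 and 36.0 in controls 2 and 4, and had a Ct of 31.8, 31.8, 33.6 and 33.3 in the hypothyroid animals. Its log2 change was 4.65 (standard error in limma 1.45, adjusted p = 0.618) with the 2 undetermined controls at 40 cycles, 2.01 with undetermined wells left out and 1.91 with 35 cycles as the highest value. A rat assay of the same number on the same card was read in all 8 animals, at a Ct of 32.4, 33.0, 34.1 and 35.4 in controls and of 29.6, 31.1, 33.5 and 35.1 in hypothyroid animals. In the rat assay the groups overlapped, with a log2 change of 1.13 (standard error in limma 1.18, adjusted p = 0.699). Both controls in which the mouse assay was undetermined were read by the rat assay.

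MiR-410, near the end of the cluster, was the only member read in all 8 animals whose groups did not overlap. Its delta Ct was 9.51, 10.01, 9.63 and 9.42 in controls and 7.54, 9.17, 8.97 and 9.27 in hypothyroid animals. Control 4 and hypothyroid 4 were close together, and hypothyroid 1 was again highest in level. The log2 change was 0.91 (standard error in limma 0.44, adjusted p = 0.618), or 1.87-fold, and it was 0.51 without hypothyroid 1, 0.57 with the mean of well-read miRNAs as reference and 0.37 with run day as a block.

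MiR-376b, of the miR-376 family between Rian and Mirg, had the lowest p among the members read in every animal. Its delta Ct was 10.7, 11.1, 10.9 and 10.5 in controls and 10.00, 9.87, 9.51 and 10.5 in hypothyroid animals, so that only hypothyroid 4 lay within the control range. The log2 change was 0.83 (standard error in limma 0.31, adjusted p = 0.618), with a change of 0.98 in study 1 and of 0.68 in study 2. MiR-540-3p, inside the Rtl1 gene model, was read in 3 controls and in every hypothyroid animal. It had delta Ct values of 21.3 (undetermined), 15.3, 18.9 and 13.5 in controls and of 10.8, 12.7, 13.5 and 14.8 in hypothyroid animals, and a log2 change of 4.28 (standard error in limma 1.76, adjusted p = 0.618). The change was 2.93 without the undetermined well of control 1, 2.30 with 35 cycles as the highest value and 2.27 with run day as a block.

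MiR-409-3p followed another order of animals. Its delta Ct was 9.31, 9.45, 9.29 and 8.78 in controls and 8.14, 9.13, 6.14 and 4.96 in hypothyroid animals, so the highest levels were in hypothyroid 3 and 4. The log2 change was 2.12 (standard error in limma 0.89, adjusted p = 0.618), with 0.75 in study 1 and 3.48 in study 2. The deposited table of delta Ct has no value for this assay in hypothyroid 3 and 4, although both wells have a Ct, and with that table, and thus with hypothyroid 1 and 2 alone, the change was 0.57. Without hypothyroid 4 it was 1.41. The other arm of the same hairpin, miR-409-5p, named after its values were seen, was at 12.4 and 11.9 in hypothyroid 3 and 4, beside 12.0 to 13.0 in the controls. A similar lone value was seen for miR-673-5p, with a Ct of 28.2 in hypothyroid 4 against 32.1, 33.6 and 32.6 in the other hypothyroid animals, while the rat miR-673 assay had a Ct of 33.4 in hypothyroid 4 and of 33.0 to 34.8 in the other animals.

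**Figure D2:**
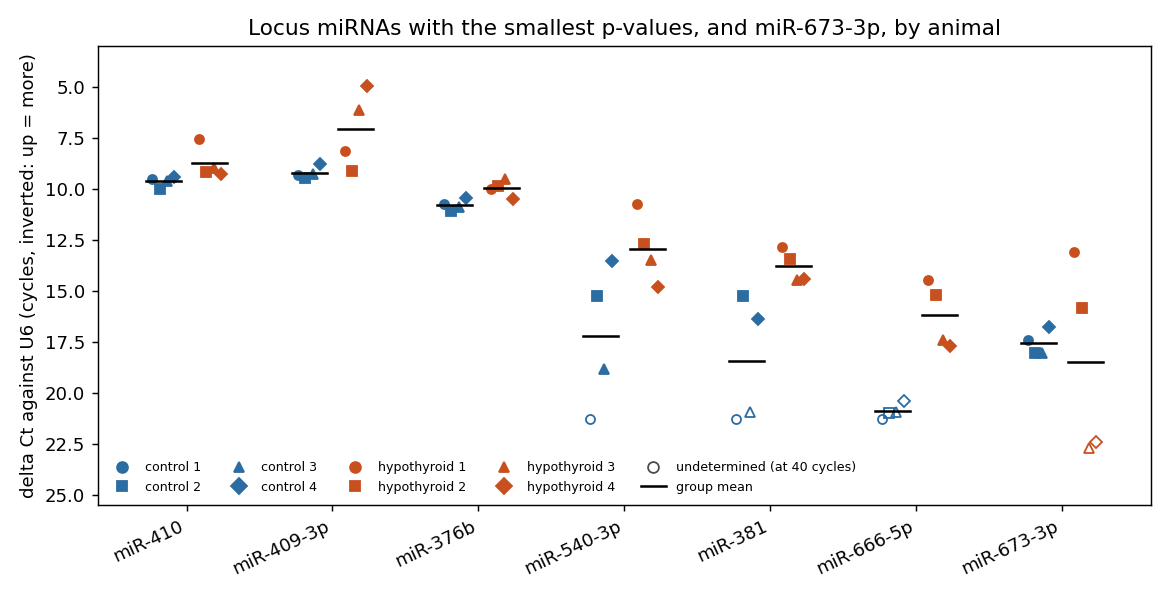
Delta Ct against U6 (cycles, axis inverted so that up means more miRNA) of 7 locus miRNAs, with 1 point per animal, open points for wells undetermined and put at 40 cycles, and a bar at each group mean. MiR-410, miR-381 and miR-666-5p have no overlap between groups, and the 4 control points of miR-666-5p are all open.

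Over the tested members, 30 of 42 (71.4%) had the higher mean in hypothyroid liver, beside 238 of 396 (60.1%) over all assays, and the median log2 change was 0.57 beside 0.17. These counts hold members that were tested because of readings in 1 group. Over the 29 members read in all 8 animals, 23 were higher and 6 were lower, with a median log2 change of 0.68 and a range of -1.26 to 2.12, beside 175 higher of 270 assays and a median of 0.20. The members with the largest changes toward lower levels were miR-434-5p (-1.73), miR-380-3p (-1.66), miR-323-3p (-1.26), miR-485 (-1.15), miR-543 (-1.09), miR-665 (-1.04), miR-673-3p (-0.94) and miR-329 (-0.82), and their adjusted p ran from 0.618 to 0.870. Apart from miR-323-3p, miR-543 and miR-329, these sizes depend on the 40 cycles put in for undetermined wells. With such wells left out miR-434-5p was at 0.55, miR-485 at 2.18 and miR-673-3p at 3.10. MiR-329 was read in every animal and had a lower mean in each study, with a delta Ct of 12.4, 12.3, 13.9 and 12.6 in controls and of 13.0, 13.1, 14.5 and 13.9 in hypothyroid animals. With the mean of well-read miRNAs in place of U6 the median over all assays moved to -0.16 and that of the tested members to 0.23, with 23 of 42 members higher.

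The mean delta Ct of the 29 members was 10.02, 10.23, 9.99 and 9.88 in controls 1 to 4 and 8.58, 9.63, 9.75 and 10.28 in the hypothyroid animals, in the same order. The controls lay close together, hypothyroid 1 was more than a cycle above every control in level, and hypothyroid 4 was the lowest animal of all. The group means were 10.03 ± 0.146 (SD, n = 4) and 9.56 ± 0.714 (SD, n = 4), a difference of 0.47 on the log2 scale or 1.39-fold, which is within the pooled SD of 0.516 and was not tested. Without hypothyroid 1 the difference was 0.143, and with the mean of well-read miRNAs as reference it was 0.135. Of the 29 members, 20 (69%) had their highest level in hypothyroid 1, beside 77 of the 270 assays read in all animals (28.5%). The spread was wider in the hypothyroid group for 25 of 29 members (86.2%), beside 198 of 270 assays (73.3%).

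The animals of each study were also compared on their own. In study 1 both hypothyroid animals lay above both controls in 33 of 42 members (78.6%), where 39.4% of the assays did so, and both lay below in 2 members, miR-329 and miR-494 (9.09% of the assays). In study 2 both hypothyroid animals lay above both controls in 6 members (14.3%), where 19.9% of the assays did so. Both lay below in 11 members (26.2%, beside 26.3%). These counts, for members and for all assays, include undetermined wells put at their bound. For the members read in every animal the median log2 change was 1.00 in study 1 and 0.10 in study 2, beside 0.31 and 0.05 over the 270 assays. The mean over the 29 members differed by 1.02 in study 1 and by -0.08 in study 2. The groups of study 1 shared no run day, so group and run day cannot be told apart there.

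The study by group interaction, fitted with limma over all assays, passed an adjusted p below 0.1 for 1 member, miR-673-3p (adjusted p = 0.0791), where 2.02% of the assays passed. At an unadjusted p below 0.05 it did so for 9 of 42 members, where 15.2% of the assays did. MiR-673-3p had a delta Ct of 17.4, 18.0, 18.1 and 16.8 in controls and of 13.1 and 15.9 in hypothyroid 1 and 2, and was undetermined in hypothyroid 3 and 4. Its log2 change was 3.24 in study 1 and -5.12 in study 2. The size of the second depends on the 40 cycles put in, and with 35 cycles as the highest value the interaction had an adjusted p of 0.293.

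Opposite order in the 2 studies, with hypothyroid above control in study 1 and below control in study 2 and no overlap in either, was seen in 9 members (21.4%) where 8.59% of the assays had it. They were miR-323-3p, miR-369-5p, miR-434-5p, miR-485, miR-495, miR-540-5p, miR-543, miR-544 and miR-673-3p. MiR-485, miR-540-5p and miR-673-3p were undetermined in hypothyroid 3 and 4, so their order in study 2 rests on the bound put in. MiR-540-5p was also undetermined in control 2, and miR-434-5p in hypothyroid 4. The other members named were read in every animal. The share over all assays includes assays with undetermined wells too. MiR-323-3p was at 10.4, 10.4, 10.7 and 10.02 in controls and at 9.98, 9.86, 12.3 and 14.4 in hypothyroid animals. MiR-543 was at 12.0, 13.4, 12.6 and 12.7 in controls and at 10.4, 11.8, 14.9 and 17.9 in hypothyroid animals, so that hypothyroid 4 had the lowest level in both. Hypothyroid above control in both studies was seen in 5 members (11.9%), where 9.6% of the assays had it. These were miR-337-3p, miR-381, miR-409-3p, miR-410 and miR-666-5p, of which miR-666-5p was undetermined in every control and miR-381 in controls 1 and 3. Hypothyroid below control in both was seen in 0 members, where 3.03% of the assays had it.

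The cards were run on 4 days, and the run days were not balanced over the groups. Controls 1 and 2 shared the first day, hypothyroid 1 was alone on the second, control 3 and hypothyroid 2 shared the third, and control 4 and hypothyroid 3 and 4 shared the fourth. Within the third day the mean of the 29 members differed by 0.36 (1 animal against 1), and within the fourth by -0.13. With the run day as a block, in which hypothyroid 1 and controls 1 and 2 give no contrast, the difference was 0.08. In that setting 3 members had an unadjusted p below 0.05 (limma), of which 1 was higher, where 14 of the 396 assays did so. For hypothyroid 1 the animal and the run day cannot be told apart. No run day of study 1 held animals of both groups, so its group difference cannot be told apart from run day.

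Some lists of markers of other cell types also had their highest level in hypothyroid 1, namely those of skeletal muscle, mesenchyme, heart and nervous tissue, while the pancreas list was highest in control 2 and those of blood cells and endothelium in hypothyroid 3. The skeletal muscle miRNAs miR-133a, miR-133b, miR-1 and miR-206, of which 4 of 4 were read and 3 in all animals, had a mean delta Ct (undetermined wells at 40 cycles) of 15.7, 12.8, 15.5 and 10.8 in controls and of 3.52, 5.80, 9.49 and 14.7 in hypothyroid animals, with the highest levels in hypothyroid 1 and 2. The mesenchyme and smooth muscle miRNAs miR-143, miR-145, miR-199a-3p and miR-214, read in all animals, ranged from 6.63 to 6.97 in controls and were at 5.45, 6.65, 5.90 and 7.45 in hypothyroid animals. The heart miRNAs (3 of 3 read, 0 in all animals) ranged from 20.04 to 21.3 in controls and from 16.5 to 20.9 in hypothyroid animals. Among them miR-499 was read in hypothyroid 1 and 2 only, miR-208 in hypothyroid 1 and 4 only, and miR-208b in control 3 and hypothyroid 1 only. The neural miRNAs (4 of 5 read, with miR-219 undetermined throughout) ranged from 15.6 to 16.5 and from 14.2 to 17.7. Among these miR-9 and miR-128a were highest in hypothyroid 1, miR-124 in hypothyroid 3 and miR-129-3p in control 3. The pancreas miRNAs (4 of 4 read, 1 in all animals) ranged from 15.2 to 18.3 and from 16.2 to 18.4. Of them miR-375, read in all animals, was highest in hypothyroid 1, at 6.78, beside 9.04 to 10.3 in the other animals. The rest of that list was undetermined in some animals. Those of blood cells (4 of 5 listed were on the cards) ranged from 7.84 to 8.22 and from 7.50 to 8.50, and miR-126-3p of endothelium from 0.582 to 0.908 and from 0.302 to 0.866. The part of these cell types in the levels of the locus miRNAs was not tested, and in bulk liver fewer cells of a type and less RNA per cell cannot be told apart.

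**Figure D3:**
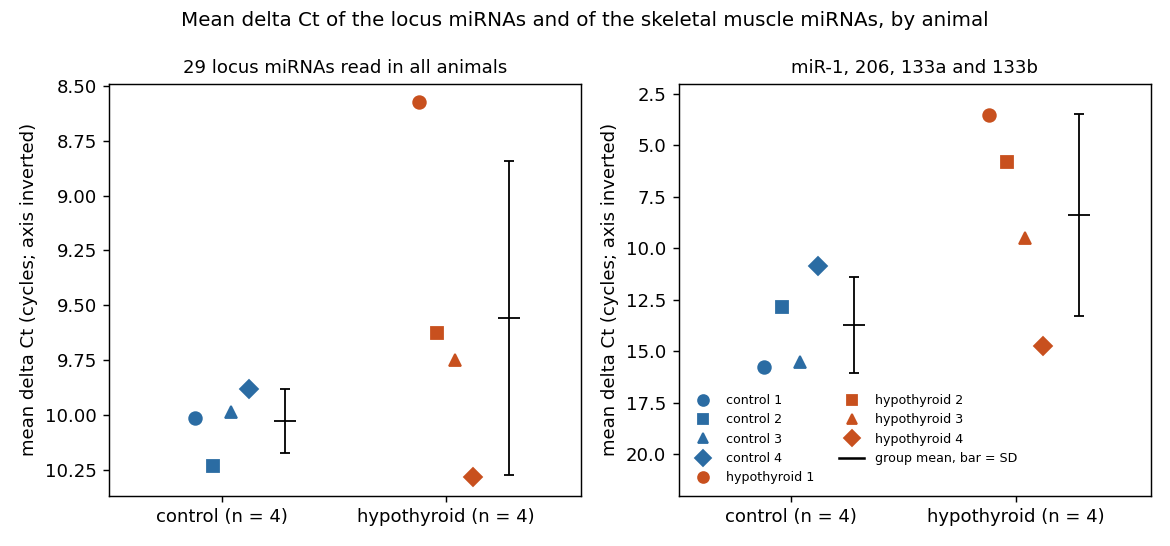
Mean delta Ct per animal (cycles, axes inverted so that up means more miRNA) of the 29 locus miRNAs read in all animals on the left and of the skeletal muscle miRNAs on the right, with group means and SD. Hypothyroid 1 is the highest animal in both panels, at 8.58 and 3.52 cycles, and hypothyroid 4 is the lowest hypothyroid animal in both.

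Along the locus the members were described by where their hairpins lie in RefSeq. The 13 members inside the gene model of Rtl1, on the strand opposite to it, include miR-127, miR-136, miR-431, miR-433 and miR-434, and 9 of 13 had the higher mean in hypothyroid liver, with a median log2 change of 0.55. Between Rian and Mirg lay 25 members, of which 22 were tested, 14 were higher and 8 were lower, with a median of 0.45. Inside Mirg lay 7 members, of which 6 were tested and 6 were higher, with a median of 0.78. Of these miR-369-5p changed by only 0.013, and miR-154 was read in 5 animals, with the rest at 40 cycles. Over all assays tested 60.1% were higher, and differences between the segments were not tested. MiR-370 was the only member inside Rian, and it was read in hypothyroid 1 and 2 only, at a Ct of 30.9 and 35.8. Over the members read in all 8 animals the median change was 1.1 in study 1 and 0.15 in study 2 inside Rtl1, 1.00 and -0.08 between Rian and Mirg, and 1.00 and 0.31 inside Mirg, so that no segment had a larger median in study 2.

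**Figure D4:**
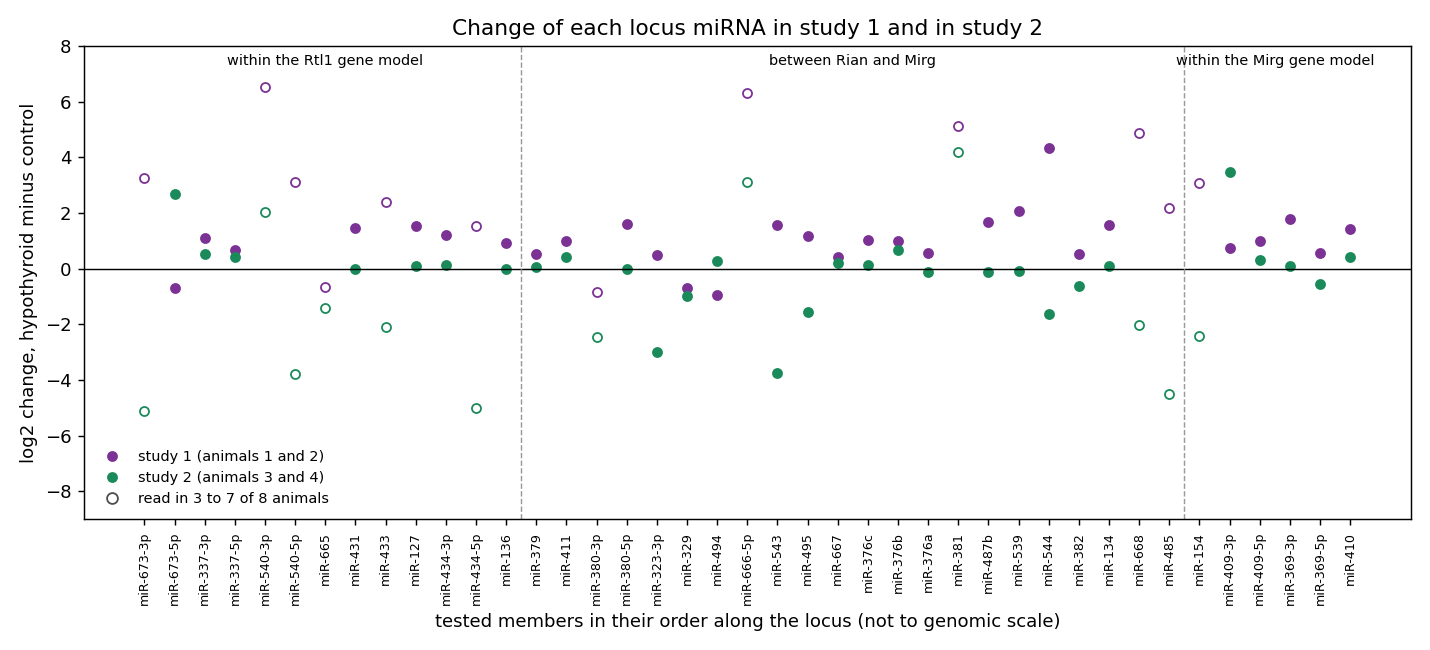
Log2 change of hypothyroid minus control for the tested members placed in RefSeq, in their order along the locus (not to scale), with 1 point for study 1 and 1 for study 2 and open points for members read in 3 to 7 of 8 animals. Most study 1 points lie above 0 and the study 2 points scatter on both sides, most widely for members not read in every animal.

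Over the 29 members read in all animals there were 406 pairs, with a median Pearson correlation of 0.574 over the 8 animals, which share their U6 reference and their cards. Over the 36315 pairs of the 270 assays read in all animals the median was 0.143. The 5 miRNAs whose levels were most like those of miR-127, of 269 compared, were miR-380-5p (r = 0.994), miR-487b (r = 0.969), miR-434-3p (r = 0.966), miR-539 (r = 0.934) and miR-410 (r = 0.931), and each of them is a member. Of the 20 most like it, 11 were members. MiR-380-5p was at 11.7, 11.3, 11.1 and 11.01 in controls and at 8.995, 10.7, 10.9 and 11.3 in hypothyroid animals, so that hypothyroid 1 was the highest and hypothyroid 4 the lowest of the hypothyroid animals, as for miR-127. These correlations are a description, and hypothyroid 1 is the far point in each.

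Another 22 assays on the cards, star strands and rat sequences, carry the numbers of members. Of these, 12 were tested, 8 had the higher and 4 the lower mean in hypothyroid animals, with a median log2 change of 0.31. Rat miR-673 was the only one with an unadjusted p below 0.05. Its delta Ct was 15.7, 15.8, 15.0 and 14.8 in controls and 14.2, 15.0, 13.8 and 14.5 in hypothyroid animals, with a log2 change of 0.93 (standard error in limma 0.38, adjusted p = 0.618).

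Of the 8 other transcripts of the locus that were sought on the arrays (Begain, Dlk1, Meg3, Rtl1, Rian, Mirg, Dio3 and Dio3os), Dlk1 and Dio3 had a probe matched by RefSeq accession. Each array compared liver with a universal mouse reference RNA, and the log2 ratio of liver over reference is given. On slide 141, control array 2 and hypothyroid array 2 had ratios that correlated at -0.972 and -0.977 with the mean of the other slides, against 0.878 to 0.981 for the other arrays, and their channels were exchanged. Control array 4 had weaker ratios than the other 9 (SD over probes 0.653, against 0.892 to 0.976).

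Dlk1, a transmembrane ligand related to the Notch ligands, had log2 ratios of -2.13, -2.62, -2.09, -0.43 and -2.11 on control arrays 1 to 5 and of -2.22, -2.37, -1.91, -1.93 and -2.31 on hypothyroid arrays 1 to 5. Control array 4 stood apart and the other arrays overlapped. The log2 change was -0.27 (standard error in limma 0.33, adjusted p = 0.848), and without control array 4 it was 0.09. Of the 32051 probes tested, 0.00624% passed an adjusted p below 0.05, and 7.41% had an unadjusted p below 0.05, which neither locus transcript had.

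Dio3 had log2 ratios of 2.23, 1.98, 2.72, 0.71 and 1.22 on the control arrays and of 2.15, 2.35, 2.35, 2.75 and 2.59 on the hypothyroid arrays, so that the 2 lowest values were those of control arrays 4 and 5 and the groups overlapped. The log2 change was 0.67 (standard error in limma 0.32, adjusted p = 0.687), and it was 0.41 without control array 4 and 0.28 with the processed signals of the scanner software. Within the slides that held an array of each group, hypothyroid minus control was -0.07 on slide 139, 0.37 on slide 141, -0.36 on slide 136 and 1.88 on slide 100, the last of which holds control array 4. With the dyes as labelled on every array the changes of Dlk1 and Dio3 were -0.37 and 0.52, and without slide 141 they were -0.40 and 0.75, with adjusted p above 0.05 in each of these settings.

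**Figure D5:**
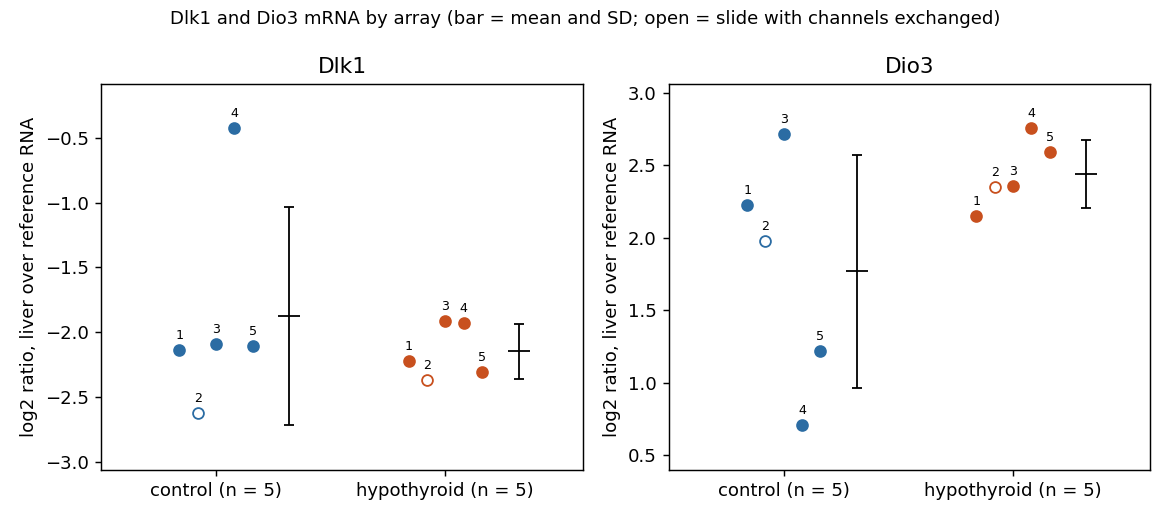
Log2 ratio of liver over reference RNA for Dlk1 (left) and Dio3 (right) on 5 control and 5 hypothyroid arrays, numbered by array, with mean and SD beside each group and open points for the slide whose channels were exchanged. Control array 4 is the highest point for Dlk1 at -0.43 and the lowest for Dio3 at 0.71, and the groups overlap for both genes.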

How the data were processed

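MiRNAs were profiled by TLDA and mRNAs on 2-colour Agilent arrays. The authors deposited the Ct of every well and a delta Ct against U6 for each animal, which is on a log2 scale, and the array files hold the median intensity of each spot as deposited by the authors. The deposited table of their own comparison (fold changes, F-test p-values and q-values) was not used. Delta Ct was computed here from the wells as Ct minus the mean U6 Ct of the card, and 0 of the values present in both differed from the deposited delta Ct by more than 0.001. The deposited table lacked 25 values whose wells were read, 2 of them in members (miR-409-3p in hypothyroid 3 and 4), and these were kept here. Undetermined wells were put at 40 cycles, duplicate wells were averaged over those read, and assays read in at least 3 of 8 animals were tested with limma 3.58.1 in R 4.3.3, with Benjamini-Hochberg adjustment over 396 assays. Array intensities were corrected with normexp (offset 50) and loess (span 0.2), and probes were kept where, in 4 or more of the 5 arrays of a group, liver signal exceeded a limit set from the negative controls (mean trimmed by 5%, with 3 SDs added).

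The members and lists were chosen with earlier results of these data known. Members were named where they passed the threshold, were among the 10 of lowest delta Ct or the 8 with the largest change in each direction, had groups that did not overlap, or were read in 1 group only. Other members with values (miR-376b, miR-409-5p and miR-370 among them) were chosen after their values were seen, apart from the 5 most like miR-127. Equal animal numbers did not pair the samples. Alternatives were other references, treatments of undetermined wells, filters, blocks, tests and leaving out each sample, and for the arrays other corrections, dyes and slide as a block. The programs were tested on simulated data. The number of animals and arrays limits the precision.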

Additional observations from a re-analysis of the deposited data

Results flagged for a closer look

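MiR-673-3p was singled out because its change differed between the studies, by -8.36 on the log2 scale (study 2 minus study 1, limma adjusted p = 0.0791), and leaving out single animals moved that adjusted p to between 0.042 and 0.230.

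A single sample stood far from the others of its group in 3 of 42 groups looked at, and about 1 in 20 such groups would do so by chance. MiR-434-5p in control 3 had a gap to its nearest neighbour of 0.905 of the range of the group, and miR-329 in control 3 had a gap of 0.840. Control array 4 had a gap of 0.758 for Dlk1. Both TLDA values are from the same animal, with the lowest level among the controls.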

How the results depend on the processing

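The number of locus miRNAs with an adjusted p below 0.1, 0 as reported, was 1 (of 2 among the 396 assays) with the mean of well-read miRNAs as reference, and 8, all higher, at an unadjusted p below 0.1, where 52 of the 396 assays passed. With single animals left out it was 0 to 1, reaching 1 without hypothyroid 3 and without hypothyroid 4. Settings chosen after seeing the data gave 1 in study 1 alone (7 of all assays), 2 in study 2 alone (17 of all assays) and 0 with run day as a block. In study 1 alone the member was again miR-666-5p. In study 2 alone they were miR-666-5p and miR-673-3p, the latter undetermined in hypothyroid 3 and 4. At an unadjusted p below 0.05 there were 2 to 8 members over the settings, and the count over all assays moved as well. Of the 396 assays 13 passed without control 1 (2 members), 37 with study as a block (4 members) and 55 in study 2 alone (6 members). The mean level of the 29 members was higher by 1.02 in study 1 alone, differed by -0.081 in study 2 alone, was 0.135 with the mean of well-read miRNAs as reference, and ran from 0.14 (without hypothyroid 1) to 0.71 (without hypothyroid 4) with single animals left out.

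Animal numbers are shared by the groups, but the correlations of same-numbered animals were -0.01, -0.04, 0.15 and -0.22 and did not pair them. With the animal number as a replicate block there were 0 members past the threshold. In that setting 3 members had an unadjusted p below 0.05 (limma), where 27 of the 396 assays did so, and the mean difference was 0.47.

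The number of members with a study by group interaction, 1 as reported, was 0 with undetermined wells left out, 0 with 35 cycles as the highest value and 3 with the mean of well-read miRNAs as reference. It ran from 0 to 10 with single animals left out, being 10 without hypothyroid 3 (where 76 of the 396 assays passed), 2 without control 3, 1 without hypothyroid 2, and 0 without control 1, control 2, control 4, hypothyroid 1 or hypothyroid 4. These settings were also chosen after seeing the data. Except without hypothyroid 3, the number of all assays passing in them is not given here. The counts of 1, 2 and 3 members can thus not be set against a share.

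Of 27 log2 changes followed, 14 kept their direction in every setting run, and 30 of 523 single values were reversed. In study 1 alone miR-434-5p was at 1.54, miR-485 at 2.19, miR-673-3p at 3.24, miR-382 at 0.53, miR-673-5p at -0.68, miR-323-3p at 0.48 and miR-543 at 1.57. In study 2 alone miR-668 was at -2.03, miR-544 at -1.62, miR-431 at -0.0049 and miR-539 at -0.077. With undetermined wells left out miR-434-5p was at 0.55 (0.55 also with the deposited delta Ct), miR-485 at 2.18 and miR-673-3p at 3.10, and with 35 cycles as the highest value miR-485 was at 0.65 and miR-673-3p at 1.14. With the mean of well-read miRNAs as reference miR-379 was at -0.051, and with run day as a block miR-382 was at 0.0099, miR-668 at -0.78 and miR-544 at -0.55. Without hypothyroid 4, miR-434-5p was at 0.55, miR-673-3p at 0.35, miR-382 at 0.51, miR-673-5p at -0.25 and miR-543 at 0.28. Without hypothyroid 3, miR-485 was at 0.012 and miR-673-3p at 0.46, and without control 1 miR-382 was at 0.09. With single animals left out, miR-382 ran from -0.38 to 0.51, miR-673-5p from -0.25 to 1.79, miR-434-5p from -3.19 to 0.55, miR-485 from -2.61 to 0.012, miR-543 from -2.20 to 0.28 and miR-673-3p from -2.75 to 0.46, with the lowest value without hypothyroid 1 except for miR-673-5p. Dlk1 ran from -0.46 to 0.091, the latter without control array 4. The cause was not tested. On the arrays 0 of the 2 locus transcripts passed in any setting. Readings near the limit of the cards, in members not read in every animal, bound the precision of these changes.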
